A study of Arabidopsis thaliana with 36 samples.

Results

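The 6 genes described here form 3 neighbouring pairs of related cold-regulated genes of Arabidopsis thaliana: COR15A (AT2G42540) with COR15B (AT2G42530), KIN1 (AT5G15960) with KIN2 (AT5G15970), and RD29A (AT5G52310, also COR78 or LTI78) with RD29B (AT5G52300, also LTI65). They were taken by locus identifier from gene count tables of 34262 genes, one table for each of 36 libraries of whole-rosette RNA. The lines were Col0, the wild type, and mbf1c and jub1, which the series title calls mutants impaired in deacclimation. The labels give the line names without the allele. Plants were 28 days old at the start and each line was sampled under 4 conditions, with 3 libraries per group, numbered Exp1, Exp2 and Exp3. NonA plants had never been cold and grew in 16 h days at 20 °C by day and 16 °C by night with 200 µE of light. ACC plants had spent 3 days at 4 °C, also in 16 h days but with 90 µE of light, so that temperature and light changed together and their effects cannot be told apart. Deacc2 and Deacc4 plants had the same cold treatment and then 2 or 4 days back under the warm long-day conditions. Later groups were also older by the days of treatment.

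Cold acclimation is the gain in freezing tolerance that temperate plants make over days in the cold, and deacclimation is its loss in the warm. CBF transcription factors bind the CRT (C-repeat) element, also called the dehydration-responsive element, in the promoters of many cold-regulated genes. ABF transcription factors bind the abscisic acid response element (ABRE) in promoters that respond to this stress hormone. COR15A and COR15B encode chloroplast proteins that protect membranes during freezing. KIN1 and KIN2, the latter also known as COR6.6, encode small hydrophilic proteins. RD29A and RD29B encode larger hydrophilic proteins. RD29A is a textbook gene of combined cold, drought and abscisic acid control, while RD29B is known mainly as an abscisic acid and salt response gene.

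In each pair both copies lie on the same strand. On build TAIR10.1, COR15A occupies chr2:17710441-17712330 and COR15B chr2:17708593-17710433, both on the minus strand, with 7 bases between the annotated genes and COR15A upstream. KIN1 occupies chr5:5209717-5210826 and KIN2 chr5:5211719-5212743 on the plus strand, 892 bases apart, with KIN1 upstream. RD29B occupies chr5:21237021-21239531 and RD29A chr5:21240717-21243644 on the plus strand, 1185 bases apart, with RD29B upstream. The annotation gives 2 exons to COR15A and to COR15B, 3 to KIN1 and to KIN2, 4 to RD29A and 5 to RD29B. The submitters' processing notes name TAIR10, and the count tables carry no coordinates, so these positions come from the reference alone.

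Coding sequences were 95.0% identical between KIN1 and KIN2 (191 of 201 bases), 83.8% between COR15A and COR15B (352 of 420 aligned bases) and 78.8% between RD29A and RD29B (1349 of 1711 aligned bases). The longest stretch of identical coding bases was 58 for KIN, 31 for COR15 and 41 for RD29. Multimapping reads are tallied apart from genes in the deposited tables (2.54% to 5.20% of reads per library), so a read that matched both copies equally would enter neither count. How many such reads each pair lost was not measured here, and the split between copies is uncertain to that extent. In the 250 bases before the start codon the copies were 90.0% (KIN), 78.3% (COR15) and 65.3% (RD29) identical over the aligned bases.

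The 500 bases before each start codon were searched on both strands for the CRT core CCGAC, the ABRE core ACGTG and the evening element AAAATATCT, a clock-related motif found before many cold-regulated genes. The CRT core was found in all 6 windows: 4 times before RD29A, 2 times before COR15A and 1 time before each of COR15B, KIN1, KIN2 and RD29B. Of 27443 protein-coding genes, 23.3% had at least 1 such match in the same window, 4.35% at least 2 and 0.164% at least 4. The ABRE core occurred 4 times before RD29B and KIN2, 3 times before COR15A and KIN1, 2 times before COR15B and 1 time before RD29A, against 34.8% of genes with at least 1 match and 0.638% with at least 4. Evening elements stood before COR15A, COR15B and KIN2 and before 4.02% of all genes. A match of these letters is a description of the sequence and not evidence of binding. By the annotation, 5 of the 10 CRT matches, 10 of the 17 ABRE matches and all 3 evening elements fell inside an annotated exon ahead of the coding sequence, and the others upstream of the annotated gene. Exons of all annotated transcripts of a gene were merged for this, so a match inside an exon can still lie ahead of a shorter transcript.

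The CRT matches are printed because this motif, which like the ABRE core was found in all 6 windows, is the one CBF factors bind. Each line gives the gene's strand 5′ to 3′ on TAIR10.1, with the core in capitals and the distance of its first base from the start codon.
COR15A, chr2:17712397-17712417, minus strand, 443 bases: cttgttggCCGACatacattt
COR15A, chr2:17712220-17712240, minus strand, 266 bases: tttcatggCCGACctgctttt
COR15B, chr2:17710126-17710146, minus strand, 265 bases: cttgatggCCGACctcttttt
KIN1, chr5:5209806-5209826, plus strand, 178 bases: aatagctaCCGACataaggca
KIN2, chr5:5211773-5211793, plus strand, 185 bases: aaaagctaCCGACataaggca
RD29A, chr5:21240569-21240589, plus strand, 352 bases: gacatggaCCGACtactaata
RD29A, chr5:21240619-21240639, plus strand, 302 bases: atatcataCCGACatcagttt
RD29A, chr5:21240676-21240696, plus strand, 245 bases: atatactaCCGACatgagttc
RD29A, chr5:21240713-21240733, plus strand, 208 bases: agatcaagCCGACacagacac
RD29B, chr5:21236877-21236897, plus strand, 320 bases: aacgtggaCCGACtaaaacta

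The RD29 copies had opposite proportions of the CRT and ABRE cores, and their ABRE matches follow, with the core in capitals. The first RD29B window overlaps its CRT window above.
RD29A, chr5:21240778-21240798, plus strand, 143 bases: cgcttcatACGTGtcccttta
RD29B, chr5:21236870-21236890, plus strand, 327 bases: gccaataaACGTGgaccgact
RD29B, chr5:21236952-21236972, plus strand, 245 bases: cgcatagcCACGTagagagca
RD29B, chr5:21236975-21236995, plus strand, 222 bases: tggctgagACGTGgcaggacg
RD29B, chr5:21237003-21237023, plus strand, 194 bases: cgcatcgtACGTGtcagaatc

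**Figure D1:**
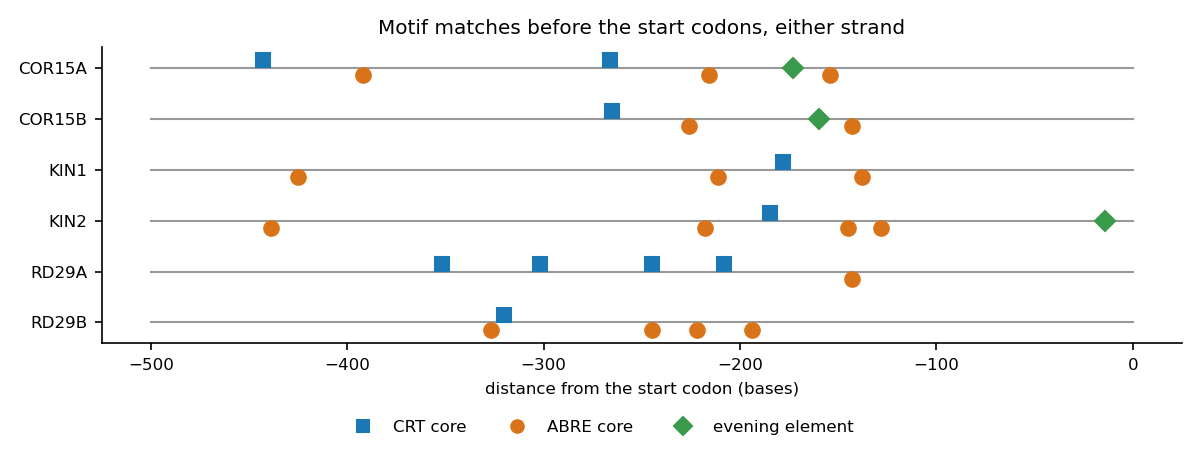
Matches to the CRT core, the ABRE core and the evening element in the 500 bases before the start codon of each gene, on either strand; the horizontal axis is the distance from the start codon in bases. RD29A carries 4 CRT and 1 ABRE match and RD29B 1 CRT and 4 ABRE matches, while KIN1 and KIN2 have CRT matches at 178 and 185 bases.

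Gene counts per library ran from 14407060 to 63178347, and levels below are CPM, a gene's counts scaled to the usual fixed total of gene counts in each library. Summed CPM of 7 rosette leaf markers lay between 59831 and 84105 at NonA and between 21182 and 47070 at ACC. The 6 floral markers summed to at most 3.82 CPM and the 5 root markers to at most 0.854 CPM in any library, with 1 root marker at 0 in all. The 6 seed maturation markers summed to at most 0.259 CPM at NonA and to between 0.341 and 0.768 CPM at ACC. The part of the leaf-marker shift in the changes below was not tested. MBF1C, the gene named by the line mbf1c, had a median of 0.727 CPM there and 2.96 in Col0, and JUB1 had 0.573 CPM in jub1 and 4.73 in Col0 (n = 12 libraries each). In whole-rosette RNA, fewer cells of a type and less RNA per cell cannot be told apart.

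COR15A, COR15B, KIN1 and RD29A rose at ACC in each line, by 3.34 to 6.18 on the log2 scale. KIN2 was already abundant before the cold and did not pass the test in any line. RD29B was scarce and passed the test in mbf1c, a call lost without either of 2 single libraries. In edgeR's quasi-likelihood test with Benjamini-Hochberg adjustment, 4 of 6 members were called higher at ACC in Col0, 5 in mbf1c and 4 in jub1, at an adjusted p under 0.05. Of the 20679 genes tested, 20.8% were called higher in Col0, 22.1% in mbf1c and 21.9% in jub1, and 17% in all 3 lines, where 4 of the 6 members were. The median log2 change of the 6 members was 4.30 in Col0, 4.46 in mbf1c and 3.77 in jub1, beside 0.01, −0.0048 and −0.0095 over all genes.

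**Figure D2:**
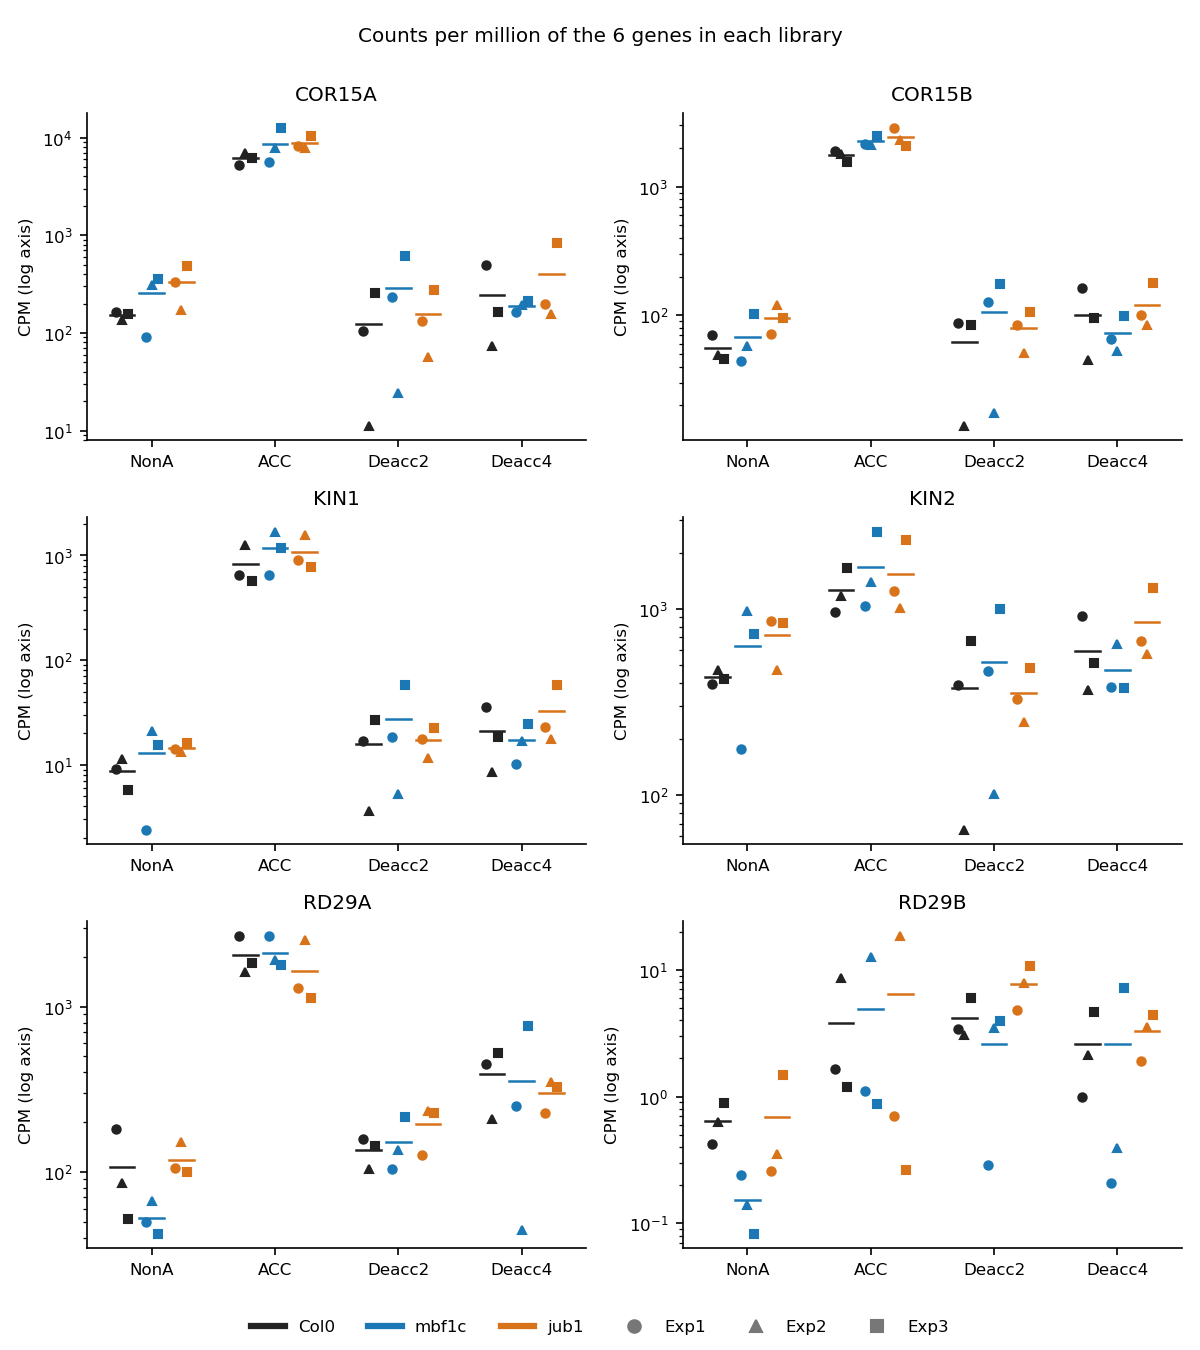
CPM of each gene in each of the 36 libraries on a log axis, by condition (NonA, ACC, Deacc2, Deacc4), with colour for the line and marker shape for the Exp number; horizontal bars are means of the 3 libraries of a group. COR15A, COR15B, KIN1 and RD29A at ACC lie above every NonA library, and RD29B is at most 18.5 CPM throughout.

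COR15A, which encodes a chloroplast membrane-protecting protein, was the most abundant member in the cold. In Col0 it stood at 164, 134 and 157 CPM at NonA in Exp1, Exp2 and Exp3 and at 5225, 7004 and 6212 CPM at ACC. The mbf1c libraries went from 91.4, 310 and 359 to 5651, 7788 and 12564 CPM, and the jub1 libraries from 331, 171 and 484 to 8140, 7751 and 10476 CPM. No ACC library came near any NonA library in any line. The log2 change was 4.98 ± 1.07 (SE) in Col0 (edgeR adjusted p = 0.000784), 4.47 ± 1.05 in mbf1c (0.00125) and 4.20 ± 1.03 in jub1 (0.0022). Counted without regard to length, COR15A ranked between the 2nd and the 4th gene of each ACC library, and its median rank at NonA was 859.

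COR15B, the downstream copy, rose as well, from a lower level. Col0 held 70.5, 49.5 and 46.2 CPM at NonA and 1908, 1803 and 1549 CPM at ACC. The corresponding values were 44.2, 58.3 and 102 against 2159, 2120 and 2456 CPM in mbf1c, and 71.8, 120 and 95.9 against 2859, 2318 and 2062 CPM in jub1. Replicates at ACC were close together, and the log2 changes were 4.64 ± 0.676 in Col0 (edgeR adjusted p = 1.07e-05), 4.45 ± 0.670 in mbf1c (1.02e-05) and 4.21 ± 0.662 in jub1 (2.58e-05). COR15B shares 468 exonic bases, 29.5% of its exonic length, with AT2G42520 on the opposite strand, and in the unstranded column used here a read that overlaps both genes is tallied as ambiguous (3.13% to 5.86% of reads per library) and enters neither count. AT2G42520 had medians of 25.2 CPM at NonA and 38.3 CPM at ACC and was not called in any line.

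KIN1 had the largest relative rise of the set. It went from 9.15, 11.5 and 5.77 CPM to 644, 1260 and 565 CPM in Col0. The rise was from 2.40, 20.9 and 15.6 to 655, 1681 and 1191 CPM in mbf1c and from 14.1, 13.3 and 16.1 to 904, 1553 and 770 CPM in jub1. Log2 changes were 6.18 ± 0.947 (edgeR adjusted p = 2.02e-05), 5.83 ± 0.931 (2.09e-05) and 5.69 ± 0.923 (3.56e-05) in Col0, mbf1c and jub1. Among the 20679 genes tested, KIN1 had the 17th largest rise in Col0, the 33rd in mbf1c and the 26th in jub1.

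KIN2, its downstream copy, had the highest median of the set in the warm. In Col0 it was at 396, 471 and 417 CPM at NonA and 960, 1172 and 1645 CPM at ACC. The mbf1c values were 176, 970 and 734 against 1033, 1397 and 2582 CPM, and those of jub1 861, 468 and 833 against 1246, 1008 and 2338 CPM. In each line the ACC libraries lay above the NonA libraries without overlap, as did 39.9%, 29.7% and 37% of genes in Col0, mbf1c and jub1 and 21.8% in all 3 lines. Even so the log2 changes of 1.22 ± 0.738 in Col0, 0.77 ± 0.731 in mbf1c and 0.60 ± 0.730 in jub1 did not pass edgeR's test (adjusted p = 0.181, 0.387 and 0.511). The edgeR scaling factors, which multiply library size, had medians of 1.25 at ACC and 0.853 at NonA, so that its fold changes are smaller than ratios of CPM. With a correction for each library's trend of counts with gene length KIN2 was called higher in all 3 lines, at log2 changes of 1.88 (edgeR adjusted p = 0.0102), 1.72 (0.0152) and 1.41 (0.044). Fitted on the compared groups alone it was also called in Col0 (1.22, adjusted p = 0.00763).

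RD29A rose in every line. The libraries of Col0 held 183, 85.3 and 52.2 CPM at NonA and 2689, 1636 and 1855 CPM at ACC. In mbf1c the values were 49.5, 66.6 and 42.3 against 2667, 1911 and 1781 CPM, and in jub1 105, 151 and 99.4 against 1295, 2533 and 1137 CPM. Log2 changes were 3.97 ± 0.621 (edgeR adjusted p = 2.52e-05), 4.76 ± 0.645 (2.5e-06) and 3.34 ± 0.603 (0.000119), with no overlap between conditions.

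RD29B was scarce in all libraries, with counts of 2 to 74 per library at NonA and 4 to 967 at ACC. It stood at 0.425, 0.625 and 0.888 CPM at NonA and at 1.66, 8.60 and 1.19 CPM at ACC in Col0. The mbf1c values were 0.240, 0.139 and 0.0832 against 1.11, 12.7 and 0.870 CPM, and the jub1 values 0.259, 0.356 and 1.48 against 0.700, 18.5 and 0.263 CPM. At ACC the Exp2 library was the highest and the Exp3 library the lowest in all 3 lines, and in jub1 the conditions overlapped. The log2 changes were 2.07 ± 1.31 in Col0 (edgeR adjusted p = 0.202), 4.45 ± 1.53 in mbf1c (0.0193) and 2.51 ± 1.25 in jub1 (0.0999). Without the Exp2 library of mbf1c at ACC the change in mbf1c was 2.25 (adjusted p = 0.237), and without the Exp2 library of jub1 at ACC that in jub1 was −0.91 (0.62). Leaving out the Exp3 library of mbf1c at NonA also ended the call in mbf1c (adjusted p = 0.0736).

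Per kilobase of annotated exon, the order of the levels differed between warm and cold. At NonA the median levels over 9 libraries were 628 CPM per kb for KIN2, 108 for COR15A, 44.5 for COR15B, 32 for RD29A, 16.0 for KIN1 and 0.164 for RD29B. The ranges of COR15A (57.7 to 306), COR15B (27.9 to 75.7) and RD29A (15.9 to 68.6) overlapped, as did those of KIN2 (235 to 1294) and COR15A and of RD29A and KIN1 (2.90 to 25.2). At ACC the order of medians was COR15A at 4893 CPM per kb, KIN2 at 1661, COR15B at 1338, KIN1 at 1090, RD29A at 697 and RD29B at 0.547. The COR15B length includes the 468 bases shared with AT2G42520, where reads that overlap both genes enter neither count. Its level per kb can therefore be too low, and its place relative to KIN2 at ACC is uncertain. There the ranges of KIN2 (1280 to 3443), COR15B (978 to 1805) and KIN1 (681 to 2028) overlapped, the COR15A range (3298 to 7932) overlapped only that of KIN2, and the RD29A range (427 to 1010) reached into those of COR15B and KIN1. Together the 6 genes took 0.0364% to 0.153% of gene counts at NonA and 1.14% to 2.06% at ACC.

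The ratio of the copies within a library needs no scaling between libraries and was tested by exact two-sided permutation over the 9 libraries of each condition, within lines, with Benjamini-Hochberg adjustment over 21 such tests. Of these, 12 had an adjusted p under 0.05, all of them between conditions. The smallest p that the permutations between conditions can give is 0.00025. The test counts libraries of different lines with the same Exp number as independent, although they moved together for several members. Averaged over lines, 3 Exp values remain per condition, with which an exact permutation test cannot reach 0.05, so the means per Exp are given.

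In the KIN pair the balance of the copies shifted towards KIN1 in the cold. KIN1 made up 1.35% to 2.76% of the pair's counts at NonA, with a median of 2.08%, and 24.8% to 60.6% at ACC, with a median of 40.1%. It then returned to 3.85% to 5.55% at Deacc2 and 2.27% to 6.11% at Deacc4. The mean log2 ratio KIN1/KIN2 rose by 5.11 from NonA to ACC (exact permutation, adjusted p = 0.0013), and the rise averaged over lines was 5.29, 5.68 and 4.38 in Exp1, Exp2 and Exp3. It fell by 3.82 from ACC to Deacc2 and by 4.31 from ACC to Deacc4 (exact permutation, adjusted p = 0.0013 for both), in the same direction in 9 of 9 line and Exp combinations. The ratio remained above NonA by 1.30 at Deacc2 (adjusted p = 0.0013, exact permutation, higher in 9 of 9) and by 0.81 at Deacc4 (0.00175, higher in 8 of 9). At Deacc4 the excess was 0.934 in Exp1, 0.10 in Exp2 and 1.39 in Exp3.

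**Figure D3:**
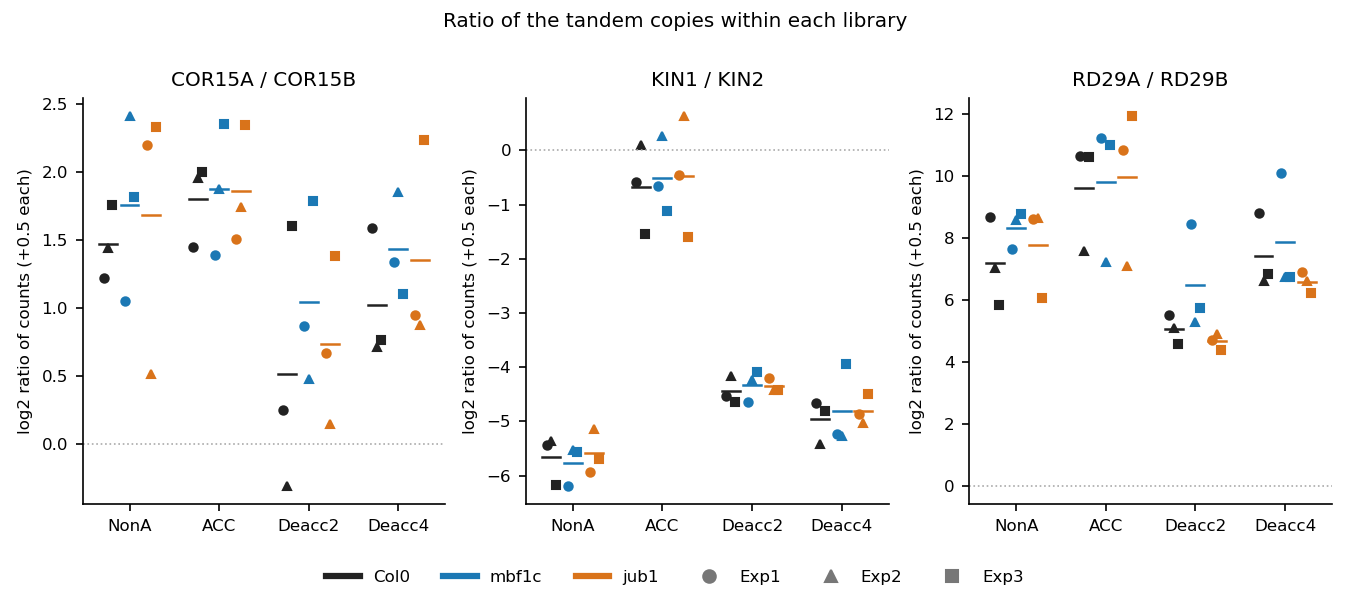
Log2 ratio of the counts of the copies (COR15A/COR15B, KIN1/KIN2, RD29A/RD29B, with 0.5 added to each count) in each library by condition, with colour for the line and marker shape for the Exp number; horizontal bars are means of the 3 libraries of a group. KIN1/KIN2 goes from a mean of −5.67 at NonA to −0.55 at ACC, while COR15A/COR15B stays between means of 0.77 and 1.85.

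In counts COR15A exceeded COR15B in all conditions on average, and the cold itself left their balance with no change that passed the test. Over 9 libraries per condition, NonA had a mean log2 ratio COR15A/COR15B of 1.64 ± 0.640 (SD), ACC of 1.85 ± 0.359, Deacc2 of 0.77 ± 0.711 and Deacc4 of 1.27 ± 0.528. From NonA to ACC it differed by 0.21 (exact permutation, adjusted p = 0.51), higher in 7 of 9 combinations. From ACC to Deacc2 it fell by 1.08 (exact permutation, adjusted p = 0.0079) and in 9 of 9 combinations, by 0.854, 1.75 and 0.641 in the means of Exp1, Exp2 and Exp3. Without Exp2 the difference was −0.75 (adjusted p = 0.156, exact permutation). Differences of −0.58 from ACC to Deacc4 and −0.87 from NonA to Deacc2 (exact permutation, adjusted p = 0.0442 for both) did not hold the threshold when Exp1 or Exp2 was left out, and the first did not without Exp3 or with the replicate number as a block (adjusted p = 0.0522) either. The only library below a ratio of 1 in counts was Col0 at Deacc2 in Exp2, where COR15A made up 44.7% of the pair's counts. Reads of COR15B that overlap AT2G42520 are not counted, so the ratios can overstate COR15A relative to COR15B.

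RD29A made up nearly all of the counts of its pair in every library (from 95.5% upwards). Over 9 libraries each, its log2 ratio to RD29B averaged 7.76 ± 1.18 (SD) in NonA, 9.79 ± 1.91 in ACC, 5.41 ± 1.22 in Deacc2 and 7.28 ± 1.28 in Deacc4 plants. The rise of 2.03 at ACC had an adjusted p of 0.0442 (exact permutation), and of 0.0762 with the replicate number as a block, and averaged over lines it was 2.6 in Exp1, −0.784 in Exp2 and 4.27 in Exp3. Without Exp1 the rise was 1.74 (adjusted p = 0.236, exact permutation) and without Exp3 it was 0.91 (0.528). The ratio fell by 4.38 from ACC to Deacc2 (exact permutation, adjusted p = 0.00175) in 9 of 9 combinations, and by 2.51 from ACC to Deacc4 (0.0263), a call lost without Exp3 (−1.48, adjusted p = 0.356). At Deacc2 it was also 2.35 lower than at NonA (exact permutation, adjusted p = 0.003), lower in 8 of 9 combinations, and without Exp2 the difference of −2.03 had an adjusted p of 0.0648.

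On return to the warm the same 4 genes, COR15A, COR15B, KIN1 and RD29A, fell in all 3 lines by the second day. At Deacc2 against ACC, 4 of 6 members were called lower in each line, where 19.6% of genes were called lower in Col0, 19.6% in mbf1c and 19.3% in jub1, and 15.2% in all 3 lines (edgeR). At Deacc4 against ACC 4 of 6 were again called lower in each line, against 23.4%, 19.8% and 21.9% of genes, and 16.2% in all 3 lines. These comparisons share the ACC libraries with the comparison of ACC and NonA, so that an opposite sign is in part built in.

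COR15A stood at 104, 11.3 and 259 CPM in Col0 at Deacc2, at 232, 24.5 and 608 CPM in mbf1c and at 134, 56.6 and 276 CPM in jub1. Its log2 change from ACC was −5.35 ± 1.09, −4.54 ± 1.05 and −5.49 ± 1.10 (edgeR adjusted p = 0.000327, 0.0011 and 0.000299). At Deacc4 it was at 491, 73.7 and 162 CPM in Col0, 165, 192 and 213 CPM in mbf1c and 196, 155 and 840 CPM in jub1. All of these values lie far below the ACC libraries and overlap those of NonA. COR15B fell as well, with log2 changes of −4.57, −4.05 and −4.59 at Deacc2 and −3.87, −4.58 and −3.93 at Deacc4 in Col0, mbf1c and jub1 (edgeR adjusted p at most 3.4e-05).

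KIN1 had log2 changes of −5.41 ± 0.910, −5.01 ± 0.893 and −5.63 ± 0.920 at Deacc2 in Col0, mbf1c and jub1 (edgeR adjusted p at most 6.31e-05), to medians of 17.7 CPM at Deacc2 and 18.4 CPM at Deacc4 over the lines. KIN2 was at 388, 65.2 and 672 CPM in Col0 at Deacc2, 460, 101 and 991 CPM in mbf1c and 326, 248 and 478 CPM in jub1. Those libraries lay below the ACC libraries of their line without overlap, as did 33.4%, 30.5% and 37.4% of genes in Col0, mbf1c and jub1 and 24.1% in all 3 lines. Its log2 changes of −1.51, −1.34 and −1.85 were not called (edgeR adjusted p = 0.103, 0.151 and 0.0523). With the replicate number as a block KIN2 was called lower at Deacc2 in Col0 (−1.66, adjusted p = 0.0385) and jub1 (−1.80, adjusted p = 0.0269), and with the gene-length correction in all 3 lines (−2.01, −1.72 and −2.05).

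RD29A also fell after the cold in every line. It was at 158, 105 and 143 CPM in Col0 at Deacc2, 104, 136 and 214 CPM in mbf1c and 127, 232 and 226 CPM in jub1. At Deacc4 the values were 448, 208 and 526 CPM in Col0, 252, 44.4 and 765 CPM in mbf1c and 229, 348 and 327 CPM in jub1. Log2 changes from ACC were −3.65, −3.41 and −2.73 at Deacc2 and −2.13, −2.21 and −2.10 at Deacc4 (edgeR adjusted p at most 0.00434). At Deacc4 the call was lost in each line when the Exp1 libraries were left out, at log2 changes of −2.01, −1.86 and −2.02 (edgeR adjusted p = 0.06, 0.0799 and 0.0584).

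RD29B, the gene known for its abscisic acid response, was not called lower after the cold. Its Col0 libraries held 3.45, 3.07 and 5.94 CPM at Deacc2 and 0.996, 2.14 and 4.61 CPM at Deacc4. Those of mbf1c held 0.290, 3.47 and 3.98 CPM and then 0.207, 0.394 and 7.23 CPM, and those of jub1 4.80, 7.85 and 10.7 CPM and then 1.90, 3.56 and 4.37 CPM. The median over 9 libraries was 0.356 CPM for NonA, 1.19 CPM for ACC, 3.98 CPM for Deacc2 and 2.14 CPM for Deacc4, and RD29B was the only member whose median was highest after the cold. Differences from ACC were not called in any line at either time (edgeR, adjusted p at least 0.673). Single libraries moved these values: without the Exp2 library of jub1 at ACC, RD29B was called higher at Deacc2 in jub1 (4.18, edgeR adjusted p = 0.0285). Without the Exp3 libraries it was called lower at Deacc4 in mbf1c (−4.07, adjusted p = 0.0419), and without the Exp2 library of mbf1c at ACC that change was 1.82 (0.287).

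**Figure D4:**
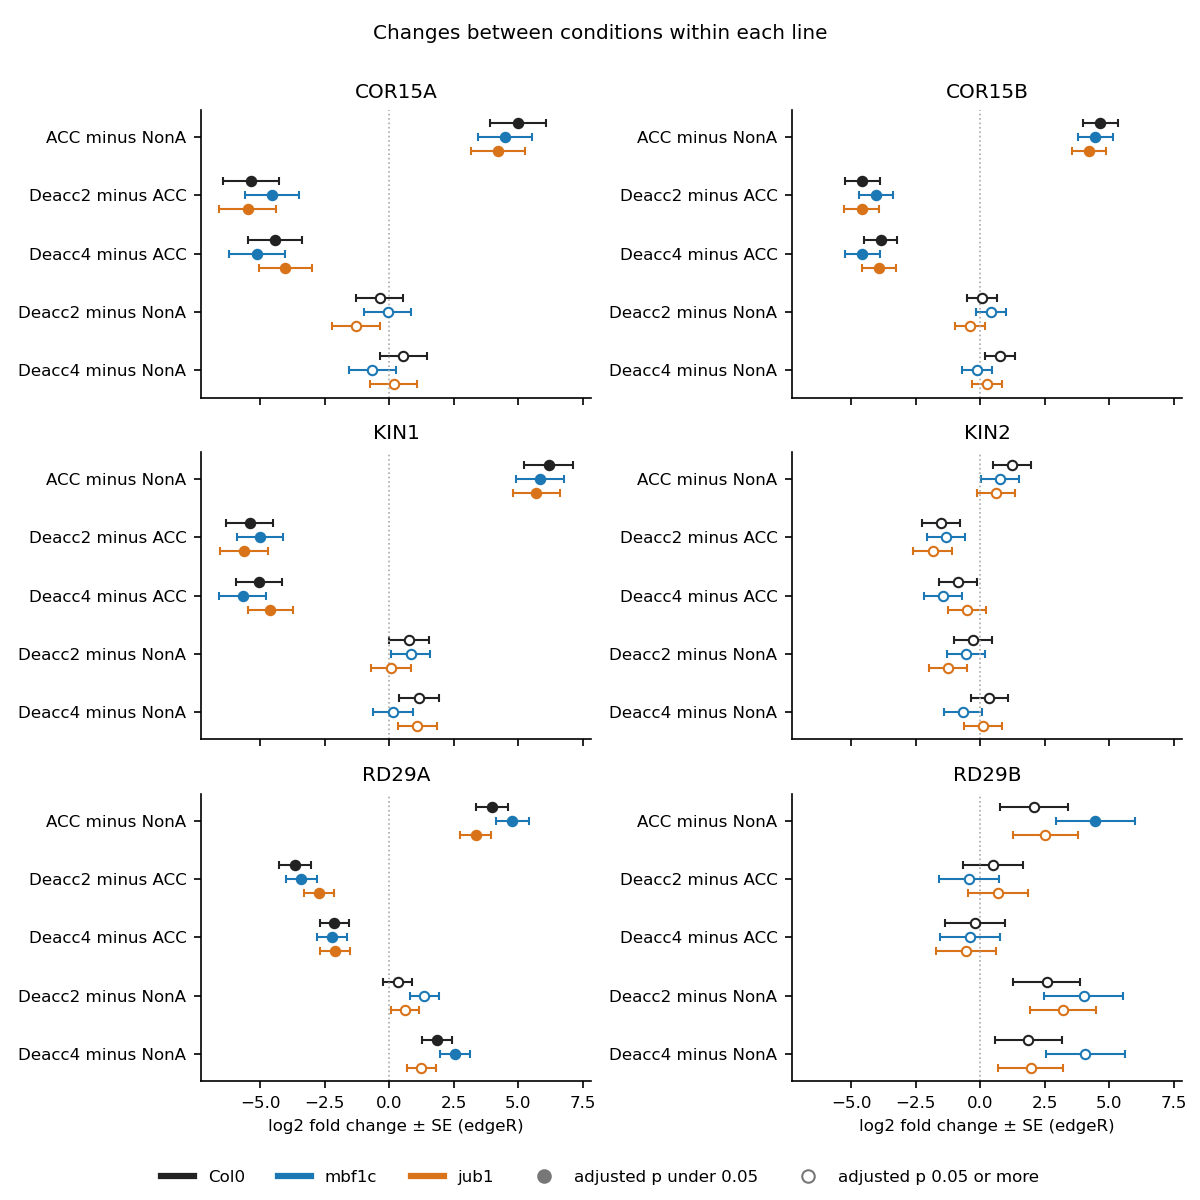
Log2 fold changes from edgeR for each gene, comparison and line, with standard errors derived from the F statistic of its test. Filled points have an adjusted p under 0.05. Filled points appear for COR15A, COR15B, KIN1 and RD29A at ACC against NonA and at both deacclimation times against ACC, for RD29B at ACC against NonA in mbf1c, and for RD29A at Deacc4 against NonA in Col0 and mbf1c.

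Against the never-cold level, RD29A and RD29B were the members called in this test after the return to the warm. At Deacc4 RD29A was called higher than at NonA in Col0, by 1.84 ± 0.569 on the log2 scale (edgeR adjusted p = 0.0494), and in mbf1c, by 2.55 ± 0.584 (0.0332), while in jub1 the value was 1.24 ± 0.559 (0.202). That is 1 of 6 members in Col0 and in mbf1c and 0 of 6 in jub1, with 1.62%, 1.37% and 0.222% of genes called higher. In Col0 the call was lost when any 1 of the 6 libraries was left out (adjusted p 0.0588 to 0.245). In mbf1c it was lost without the Exp3 library at Deacc4 (1.16, adjusted p = 0.305) or at NonA (2.52, 0.221). A test of whether jub1 differed from the other lines in this comparison was not made. At Deacc2 against NonA none of the 6 members was called in any line, with 0.00484% of genes called in either direction in Col0, 0.058% in mbf1c and 6.05% in jub1. The number of members with an unadjusted p under 0.05 was 0, 2 and 1 in the same order (edgeR), beside 3620, 4601 and 6042 of the 20679 genes tested. DESeq2 called 1 member in mbf1c, beside 5.9% of genes.

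Averaged over the lines, which puts 9 libraries against 9, RD29A was 1.88 ± 0.329 higher at Deacc4 than at NonA on the log2 scale (edgeR adjusted p = 0.000124) and RD29B 2.62 ± 0.790 higher (0.0102). These were 2 of 6 members, beside 19.4% of genes called higher. Like the ratio test, the fit behind these averages counted libraries of different lines with the same Exp number as independent. By Exp, the differences in log2 CPM averaged over lines were 1.59, 0.635 and 3.08 for RD29A and 1.30, 2.20 and 3.46 for RD29B. Without the Exp3 library of mbf1c at Deacc4 the RD29B difference was 1.58 (edgeR adjusted p = 0.13). At Deacc2 the average over lines was called for RD29B alone, 1 of 6 members (3.26 ± 0.796, edgeR adjusted p = 0.00236), with 19.9% of genes called higher, and RD29A stood at 0.76 ± 0.320 (0.0573). RD29B was higher at Deacc2 than at NonA in 9 of 9 combinations of line and Exp, by 2.50, 3.80 and 3.73 in the means of Exp1, Exp2 and Exp3. COR15A, COR15B, KIN1 and KIN2 did not pass the test against NonA in these averages, with log2 differences between −0.70 and 0.79. With the gene-length correction KIN1 was called higher than at NonA, by 1.25 at Deacc4 (edgeR adjusted p = 0.00983, and 1.2 with 0.00969 when the replicate block was added) and by 0.96 at Deacc2 (0.0459). Between Deacc4 and Deacc2 no member was called (0 of 6 by edgeR, with 0.0435% of genes called in either direction). An unadjusted p under 0.05 (edgeR) occurred for 1 member, RD29A at 1.12 ± 0.322, beside 2021 of the 20679 genes tested.

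No member was called between a mutant line and Col0. In edgeR's test, 0 of 6 members passed in each of the 8 comparisons within a condition, the 2 averages over conditions and the 4 tests of whether the response to cold or to the return differed between a mutant and Col0. Of all genes, 0.00967%, 0.00484%, 0.0145% and 0.0193% were called between mbf1c and Col0 at NonA, ACC, Deacc2 and Deacc4 in either direction, 0.029% in their average, 0.0339% in the average of jub1 against Col0, and 0% in the other comparisons. Unadjusted p-values under 0.05 occurred for 1 member, COR15B in the average of jub1 against Col0 (0.62 ± 0.292, edgeR adjusted p = 0.522), and for between 62 and 1942 genes per comparison. Under DESeq2 also 0 members were called in each, beside 0% to 0.131% of genes. In the averages over conditions, the median log2 difference of the 6 members from Col0 was 0.62 in jub1 (0.118 to 0.85). In mbf1c it was 0.40 (−0.493 to 0.682). Over all genes the medians were −0.0059 in jub1 and 0.040 in mbf1c. The response of COR15A to cold differed from that of Col0 by −0.51 ± 1.28 in mbf1c and by −0.78 ± 1.29 in jub1, with 95% intervals from −3.03 to 2.00 and from −3.30 to 1.74. The ratios of the copies did not pass between lines either, with differences of 0.32 and 0.20 for COR15A/COR15B, 0.08 and 0.13 for KIN1/KIN2 and 0.81 and −0.07 for RD29A/RD29B in mbf1c and jub1 (exact permutation, adjusted p at least 0.255).

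Libraries of the same Exp number shared highs or lows across the lines for some members and conditions, most often at Deacc2. At NonA the only such case was RD29A, lowest in Exp3, and RD29A had none in the other conditions. At Deacc2, Exp2 was the lowest of the 3 libraries in all 3 lines for COR15A, COR15B, KIN1 and KIN2, and Exp3 the highest for COR15A, KIN1, KIN2 and RD29B. For COR15A the Exp2 values of 11.3, 24.5 and 56.6 CPM stood against 104, 232 and 134 CPM in Exp1. At ACC, KIN1 was highest in Exp2 and KIN2 in Exp3 in all 3 lines, so that the copies of this pair did not share their order. RD29B was highest in Exp2 at ACC but highest in Exp3 at Deacc2 and Deacc4. The labels do not say whether an Exp number marks a shared sowing, harvest or batch.

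**Figure D5:**
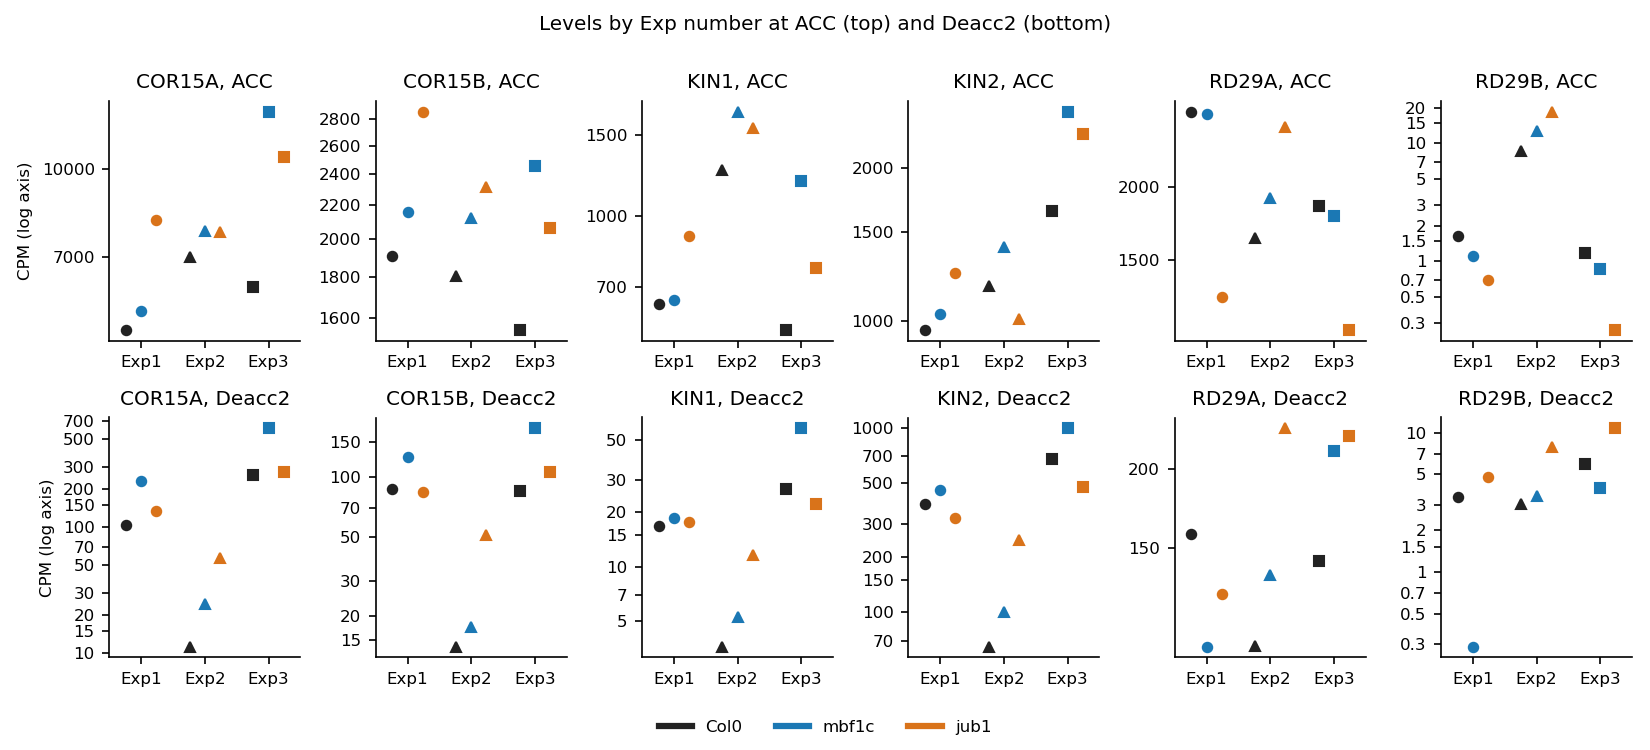
CPM on log axes of each gene at ACC (top) and Deacc2 (bottom) by Exp number, with colour for the line. At Deacc2 the Exp2 libraries are the lowest of each line for COR15A, COR15B, KIN1 and KIN2, and at ACC the Exp2 libraries are the highest for RD29B.

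Of 12 regulators of the CBF pathway, 1 was called higher and 1 lower at ACC against NonA in Col0, 1 and 3 in mbf1c and 1 and 2 in jub1 (edgeR). Of all genes, 20.7%, 24.7% and 23.1% were called lower in the same order, beside the shares called higher given above. HOS1, which encodes a ubiquitin ligase acting on the CBF activator ICE1, was the gene called higher, at log2 changes of 1.78, 1.67 and 1.79. PIF4, a light and temperature signalling factor gene, was called lower, at −1.99, −2.55 and −2.54. CBF1, CBF2 and CBF3 were not called in any line after 3 days of cold. Their medians from NonA to ACC were 5.10 and 3.58 CPM for CBF1, 8.30 and 4.60 CPM for CBF2 and 8.55 and 15 CPM for CBF3. In CPM the ACC libraries of CBF3 lay above the NonA libraries of each line without overlap, as did 21.8% of genes in all 3 lines. The edgeR log2 changes of CBF3 were 0.43, 0.75 and 0.15 in Col0, mbf1c and jub1. The median log2 change of the 12 genes in Col0 was −0.41, beside 0.01 over all genes.

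Among 14 other cold-regulated genes of the CBF regulon, 7 were called higher and 0 lower at ACC in Col0, 7 and 0 in mbf1c and 3 and 1 in jub1 (edgeR), beside 20.8%, 22.1% and 21.9% of all genes called higher and 20.7%, 24.7% and 23.1% called lower. In jub1 the share called higher was thus near that of all genes. LTI30, a dehydrin gene, rose by 5.59, 6.10 and 5.09 on the log2 scale in Col0, mbf1c and jub1. ERD10, another dehydrin gene, rose by 2.01, 2.47 and 1.74. Averaged over lines, 6 of the 14 were called higher at Deacc4 than at NonA, among them COR47, also a dehydrin gene (1.42 ± 0.222), and LTI30 (1.24 ± 0.304), beside 19.4% of all genes. The median log2 change of the 14 at Deacc4 was 0.74, beside −0.03 over all genes.

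In the list of 21 abscisic acid and DREB2 pathway genes, 10 were called higher and 2 lower at ACC in Col0, 11 and 2 in mbf1c and 9 and 2 in jub1 (edgeR), beside the same shares of all genes. ABI5, an abscisic acid response transcription factor gene, rose by 3.73, 4.22 and 2.95 on the log2 scale from a median of 0.261 CPM. ABF3 rose by 1.13, 1.52 and 1.52 and ABF1 by 0.90, 1.23 and 0.72, while ABF2 (0.21, 0.38 and 0.28) and ABF4 (0.05, 0.20 and 0.10) were not called in any line. The protein kinase genes SNRK2.2 (−1.42, −1.38 and −1.24) and SNRK2.3 (−1.79, −1.78 and −1.35) fell. Averaged over lines, 8 of the 21 were called higher and 1 lower at Deacc2 than at NonA, with ABI5 at 1.16 ± 0.243, ABF3 at 0.76 ± 0.194 and ABF4 at 0.48 ± 0.119, beside 19.9% of all genes called higher and 20.8% lower. At Deacc4 6 were called higher and 1 lower, beside 19.4% and 21% of all genes.

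Of the 2 nearest protein-coding genes on each side of each pair, 12 in all, 10 were tested. AT5G15950, next to KIN1, was called higher at ACC in all 3 lines by 2.16, 2.72 and 2.22 on the log2 scale, from a median of 32.8 CPM to 213 CPM. SHOC1, next to RD29B on the other strand, was also called in all 3 lines (2.76, 2.36 and 2.06, from 0.161 CPM to 1.13 CPM). Of all genes, 17% were called higher in all 3 lines, and 20.8% in Col0, 22.1% in mbf1c and 21.9% in jub1. AT2G42510 was called in Col0 alone (1.35, edgeR adjusted p = 0.00189) and AT2G42560 in jub1 alone (adjusted p = 0.0461), with a median of 0 CPM at NonA and 0.101 CPM at ACC. The other 6 tested neighbours were not called in any line.

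Over the 12 group means of log2 CPM, COR15A and COR15B had a correlation of 0.99, KIN1 and KIN2 of 0.80 and RD29A and RD29B of 0.36. COR15B had a correlation of 0.993 with KIN1, more than with its own copy. These are descriptions over 12 groups that share their conditions. The genes most like each member were AT4G01590, AT3G61560 and AT5G63220 for COR15A (r from 0.989 to 0.991). For COR15B they were TT4, the chalcone synthase gene (0.99), AT5G17780 (0.99) and AT1G15470 (0.989), and for KIN1 AT1G16850 (0.997), AT5G17780 (0.996) and CYP81D5 (0.992). KIN2 was most like AT4G27657 (0.981), the sterol reductase gene FK (0.961) and AT2G37680 (0.958). RD29A was most like ERD10 (0.996), the calcium pump gene ACA8 (0.992) and AT1G80130 (0.986), and RD29B like AT3G45620, AT2G25625 and AT2G35070 (0.94 to 0.945).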

How the data were processed

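Per the labels' protocols, whole-rosette total RNA was isolated with Trizol, cleared of DNA with DNase and sequenced by BGISEQ-500. The authors deposited raw read counts for each gene, unstranded and by strand. The submitters' processing notes name STAR 2.6.0c, TAIR10 and DESeq2, the last with no role. Which annotation release was counted is not stated in the sources used here. The unstranded column was used; the first strand column held 50.4% to 52.0% of stranded counts. Genes made up 87.2% to 93.0% of reads per library. TAIR10.1, whose locus tags matched 32548 genes, gave names, positions, exonic lengths and sequences. The members and lists were chosen with earlier results of these data known. Genes passing filterByExpr (20679, with all 6 members) were scaled by TMM and fitted in 1 edgeR 4.0.16 quasi-likelihood model (R 4.3.3) with a term for each of 12 groups and a common dispersion of 0.1056. In it 32 contrasts were tested with Benjamini-Hochberg adjustment at 0.05, and the fit was tested on simulated data. Log2 changes carry standard errors, taken as the size of the change divided by the square root of the F statistic of edgeR's test. Intervals were built from these standard errors by a normal approximation and can differ from the test near its threshold. Exact permutations used within-library ratios of counts with 0.5 added. Alternatives were DESeq2 1.42.0, RLE scaling, no filter, the first strand column, a loess correction for exonic length, only the compared groups, the replicate number as a block and leaving out replicates or single libraries. Named genes were the 6 members and, for each, the 3 most correlated genes outside the 6. The CBF and ABF genes and 2 neighbours on each side were also named. From each list, up to 4 genes with the smallest adjusted p per contrast were added. OST1 was named beside the SNRK2 genes. The design text calls replicates biological. Same-numbered libraries had deviations correlated over 0.1 in every pair in 8 of 23 contrasts of 2 groups. Among these were mbf1c against Col0 in every condition and jub1 against Col0 at Deacc2. With the replicate number as a block, 0 members were called in these line comparisons too, beside 0% to 0.0193% of genes. Neither the main fit nor the main ratio test paired them, and the replicate number entered as a block only in the alternatives.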

Additional observations from a re-analysis of the deposited data

How the results depend on the processing

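The counts of called members kept within 1.5 times of the reported ones under RLE scaling in all 32 contrasts. At Deacc4 against NonA the 1 member called in Col0 became 0 with the length correction and 2 with only the compared groups. Of the genes tested in each setting, 9.95% and 28.1% were called there in either direction. The 1 in mbf1c became 0 with only the compared groups and 2 under DESeq2, beside 0% and 9.19% of genes. At Deacc2 against NonA the 0 in mbf1c became 1 under DESeq2, beside 5.9% of genes. The 0 in jub1 became 1 with the length correction and replicate block and 2 with only the compared groups, beside 12.8% and 29.8%. The latter setting also made the 0 in jub1 at Deacc4 into 1, beside 3.44% of genes. The average over lines at Deacc2 went from 1 to 2 with no filter, the first strand column, the length correction, only the compared groups and DESeq2. These settings called 29%, 38.9%, 35%, 38.9% and 44% of genes in the same order.

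The replicate block raised the count from 0 to 1 for jub1 at Deacc2 against NonA (RD29B, 3.32, edgeR adjusted p = 0.0438), beside 13.1% of genes. It changed no other count of calls by over 1.5 times. For the ratio RD29A/RD29B the rise of 2.03 from NonA to ACC had an adjusted p of 0.0762 with the block (exact permutation). A rise of 1.86 with the first strand column had 0.0626, and 1.73 with the length correction had 0.0879 (exact permutation). For COR15A/COR15B the difference of −0.58 from ACC to Deacc4 had 0.0522 with the block, and −0.87 from NonA to Deacc2 had 0.0539 with the first strand column (exact permutation).

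Leaving out replicates gave 0 to 0 members in Col0 at Deacc4 against NonA, beside 0% to 2.82% of genes in either direction. At Deacc4 against ACC it gave 3 to 4 in Col0, 3 to 5 in mbf1c and 2 to 4 in jub1. The shares of genes there were 28.7% to 33.6%, 27.7% to 35.5% and 28.8% to 29.7%. In mbf1c at Deacc4 against NonA it gave 0 to 1 (0 to 2 with single libraries), beside 0% to 4.81% of genes. At ACC against NonA it gave 4 to 5 in mbf1c and jub1, beside 29.1% to 36.1% and 22.5% to 35.9% of genes. At Deacc2 against ACC it gave 4 to 5 in jub1 (4 to 6 with single libraries), beside 21.9% to 26.3%. The averages against NonA gave 1 to 2 at Deacc4, beside 13.3% to 33.1%, and with single libraries 1 to 2 at Deacc2. The ratio differences ranged from −1.30 to −0.75 (COR15, ACC to Deacc2), −0.79 to −0.43 (ACC to Deacc4), −1.12 to −0.64 (NonA to Deacc2), 0.91 to 3.44 (RD29, NonA to ACC), −3.44 to −1.48 (ACC to Deacc4) and −2.54 to −2.03 (NonA to Deacc2). Signs turned for KIN1/KIN2 in mbf1c against Col0 without replicate 3 (−0.18; range to 0.31), RD29A/RD29B in jub1 against Col0 without replicate 1 (0.21; range from −0.23) and KIN1 in the average at Deacc2 against NonA without replicate 3 (−0.20; range to 1.17). For RD29B they turned in mbf1c at Deacc4 against ACC without replicate 2 (2.32; range from −4.07) or single libraries (1.82 without the ACC library of replicate 2, 0.10 and 0.09 without the Deacc4 libraries of replicates 1 and 2), in jub1 at ACC against NonA without replicate 2 (−1.32, range to 4.51, or −0.91 without its ACC library alone) and in jub1 at Deacc2 against ACC without replicate 3 (−0.21; range to 4.18). The cause was not tested.

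The 3 libraries per group and the low counts of RD29B limit what can be told apart, and intervals and counts cover these libraries only. Reads carry no molecular identifiers.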
